A study of Bos taurus with 12 samples.

Results

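The complement system of the bovine endometrium, the lining of the uterus, was followed through 32 genes. They were taken by name: every probe whose gene name in the scanner files was one of a fixed list of complement components, regulators and lectins belonged to them, and each gene was read from its brightest probe. The 32 genes had 87 of the 43653 probes on the array and were 32 of its 25314 gene names. They divide into 6 genes of the classical pathway, 5 of the lectin pathway, 4 of the alternative pathway, 7 of the terminal pathway and 10 regulators and receptors. Of these 32 genes, 29 gave a signal well above background on at least 3 of the 12 arrays and were tested, and 21 did so on all 12. MASP2, CR2 and VTN were not well above background on any array.

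The samples were endometrial biopsies of 3 cows, labelled fertile, each sampled at 4 times (day 0, 2, 7 and 14) around intrauterine povidone-iodine (PVP-I), an antiseptic that releases iodine. All 4 days therefore come from the same PVP-I cows, n = 3 a day, and no untreated cow was among the samples, so antiseptic, time, cycle stage and repeated biopsy cannot be told apart. Biopsies alternated between the left and right uterine horns, but the labels used here do not give the horn, the cycle stage or the age of a cow, or whether the day 0 biopsy preceded the antiseptic. Total RNA was labelled with Cy3 and hybridised to 1 one-colour Agilent array a biopsy.

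Complement is a set of plasma and tissue proteins that mark and lyse microbes and clear dead cells. The classical pathway starts when C1q binds antibody or dying cells, the lectin pathway when collectins or ficolins bind sugars, and the alternative pathway runs on C3 itself with factor B, factor D and properdin. All of them cleave C3 and then C5, after which C6, C7, C8 and C9 form a pore, while factor I and membrane proteins such as CD46, CD55 and CD59 hold the cascade back. The liver supplies most of these proteins to the blood, but macrophages, epithelium and stroma make some of them locally.

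Before any result, a conflict over sample names needs stating. For 10 of the 12 arrays the deposited value table and the scanner files name different samples. Arrays were named by the table, by which every slide carries a single cow with its 4 days, so that slide and cow are 1 factor. By these names 20 probes set the 4 arrays of a cow at least 8-fold apart from all the others, and by the names of the file links 0 probes did. As slide and cow are 1 factor by the table's names, this count cannot tell a cow from a slide and does not settle the names. With the file links, limma called 0 of the 32 genes in every comparison, and the signs of 11 of the changes given here turned. Everything that follows holds for the table's names.

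On 11 arrays, 71.3 to 76.0% of probes were well above background. The day 2 array of cow 3 stood apart with 63.2%. All 11 epithelial and all 11 stromal genes were well above background on every array, as were 5 of 8 endometrial genes. As most probes were above background on each array, these counts cannot by themselves establish the labelled tissue. The mean log2 signal of 8 smooth muscle genes was 5.10 on the day 2 array and 4.68 on the day 14 array of cow 3, against 1.85 to 2.62 on the day 2 and day 14 arrays of cows 1 and 2. Epithelial signal was lowest on the day 2 array of cow 3, at 0.23, and lay between 0.66 and 2.12 on the others. In whole biopsies, fewer cells of a type and less RNA per cell cannot be told apart.

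Signals are given as log2 relative to the array's 75th percentile, so that a probe at 0 is as bright as that percentile and 1 unit is a 2-fold difference. A gene is said to have risen or fallen where its adjusted p was under 0.05 in limma, with cow as a block and Benjamini-Hochberg adjustment over all 33539 probes tested. Differences are the later day minus the earlier one.

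Of the 32 genes, 3 of which could not be tested, 6 had risen on day 2 and 0 had fallen. They were C2, MASP1, CFB, CFP, C6 and CFI, with log2 changes from 2.06 to 5.97. C6 passed the filter only through the arrays of days 2 and 7, on which it was high, so its calls add no support. Of all 19128 genes tested, 1.69% rose and 1.08% fell in this comparison. On day 7, 9 had risen and 1 had fallen, against 9.71% and 8.79% of all genes. The 6 genes of day 2 were again among them, joined by C3, C8B and C5AR1, and the gene that fell was COLEC11. At day 14 limma called 0 of the 29 against day 0, where it called 0.0941% of all genes, and 4 (C2, MASP1, COLEC11 and CFI) had an unadjusted p under 0.05, as had 20.6% of all probes. The median change of the 32 genes was 0.63 on day 2, 0.68 on day 7 and 0.51 on day 14, and that of all 25314 genes was 0.04, 0.06 and 0.01. The 3 comparisons share the day 0 arrays. As the list was chosen with earlier results of these data known, the shares of all genes beside these counts are no test of the list.

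The counts depended on single cows. Without cow 1, limma called 0 of the 29 on day 2 and 0 on day 7. Without cow 2 it called 0 on day 2 and only COLEC11 on day 7. Without cow 3 it called 5 on day 2 and 15 on day 7. Without the day 2 array of cow 3 alone, C2, CFB and CFI were called on day 2, and the day 7 count was 10.

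**Figure D1:**
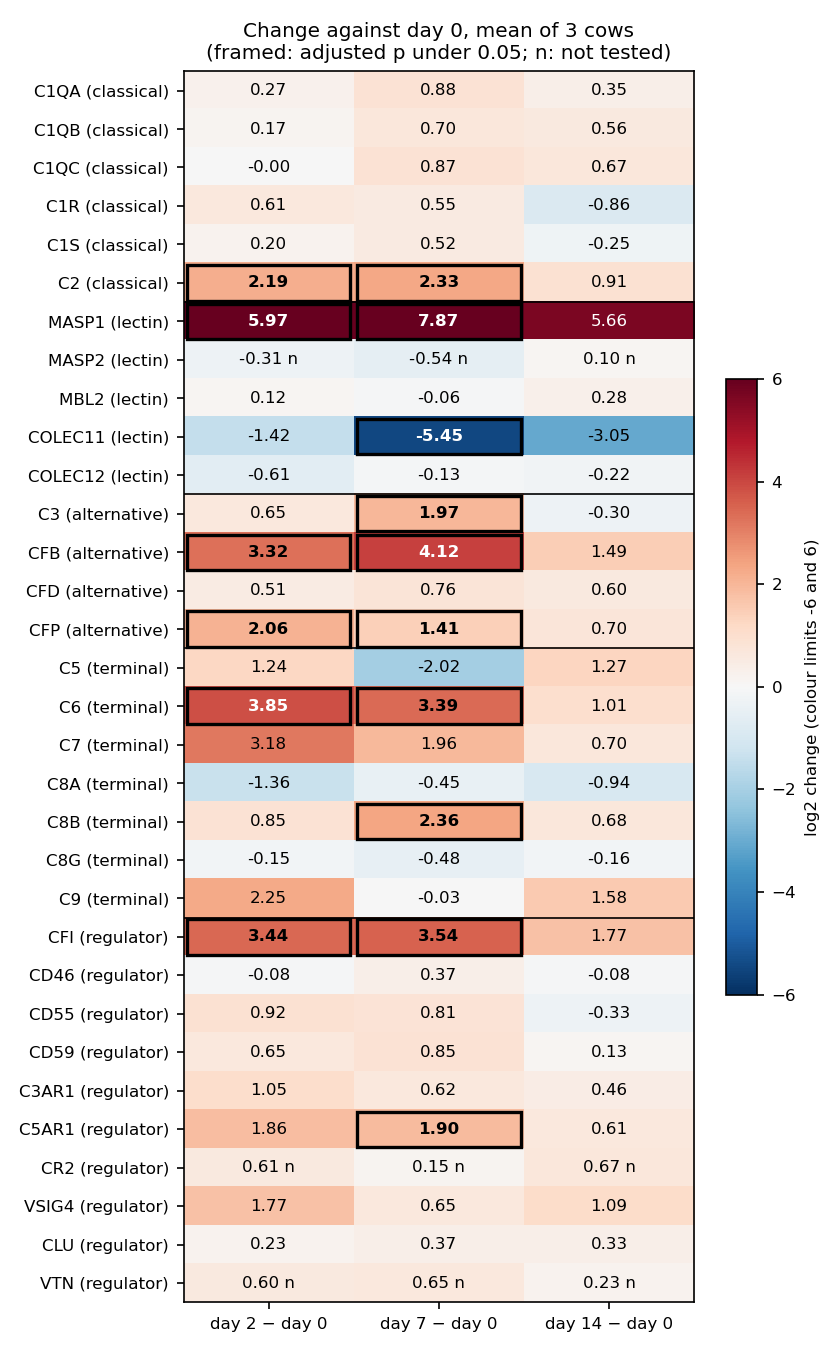
Log2 change of all 32 complement genes on day 2, 7 and 14, each minus day 0 (columns), as the mean of 3 cows, by pathway (rows). Framed cells have an adjusted p under 0.05 and n marks genes that were not tested; frames lie in the columns of day 2 (6 genes) and day 7 (10 genes).

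In the classical pathway, 1 of 6 genes passed the test. C2, the serine protease that pairs with C4 in the enzyme cleaving C3, rose on both days. Its signals in cows 1, 2 and 3 were -3.51, -3.50 and -3.82 at day 0, -1.21, -0.38 and -2.68 at day 2, -0.62, -1.23 and -1.97 at day 7, and -2.73, -2.03 and -3.33 at day 14. Every cow was lowest on day 0, and neither day 2 nor day 7 overlapped with day 0. The change was 2.19 ± 0.37 (SE) on day 2 (adjusted p = 0.0285 in limma) and 2.33 ± 0.37 on day 7 (adjusted p = 0.0073), or 4.55-fold and 5.04-fold. A second C2 probe rose on day 7, by 2.32, and its day 2 change of 1.95 had an adjusted p of 0.073. The first 30 of the 60 bases of the brightest C2 probe are shown to identify what was measured. The probe lies on chr23:27213723-27213782 of Btau_3.1, the build of the array files, on the minus strand:
C2: cctctgctgtacttggctcactctccttct

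The other 5 classical genes encode the C1 complex: C1QA, C1QB and C1QC are the chains of C1q, which binds the target and is made largely by macrophages, and C1R and C1S are its proteases. None of the 5 passed the test on any day. On day 7 the 3 chains differed from day 0 by 0.70 to 0.88 on average, with adjusted p from 0.19 to 0.31. Cows 1 and 2 were above their own day 0 in all 3 chains, by 0.82 to 1.72, while cow 3 differed by -0.17 to 0.02. Without cow 3, all 3 chains and C1S were called on day 7. On day 14 cow 3 differed from its own day 0 by -1.29 to -1.15 in the chains, and cows 1 and 2 from theirs by 1.12 to 1.72. C1R differed from day 0 by 0.61 on day 2 and -0.86 on day 14, without overlap in either comparison, but adjusted p was 0.51 and 0.35. The brightest C1S probe shares 41 bases with a probe under another gene name.

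Markers of macrophages were read beside these genes. All 15 macrophage genes on the array were well above background on every array, and their mean signal was -1.82 to -1.59 at day 0, -0.25 to -0.09 at day 2, -1.60 to 0.30 at day 7 and -1.85 to -0.79 at day 14. Of them 1 rose on day 2 and 7 rose on day 7, where 1.69% and 9.71% of all genes rose. The macrophage mean of every cow was higher on day 2 than on day 0, and that of cow 3 was -0.12 on day 2 against -1.70 on day 0, while the C1q chains of cow 3 differed from day 0 by -0.85 to -0.34 on day 2 and those of cows 1 and 2 by 0.35 to 0.83. On day 7 cow 3 had the lowest macrophage mean of the 3 cows, -1.60, against 0.30 in cow 1 and -0.24 in cow 2. The 11 neutrophil genes averaged -3.90 to -3.54 at day 0, -2.73 to -2.21 at day 2, -3.53 to -2.40 at day 7 and -3.46 to -2.97 at day 14. Of the 9 neutrophil genes that were tested, 1 rose on day 2 and 2 rose on day 7, beside the same shares of all genes. The part of either cell type in the complement results was not tested.

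**Figure D2:**
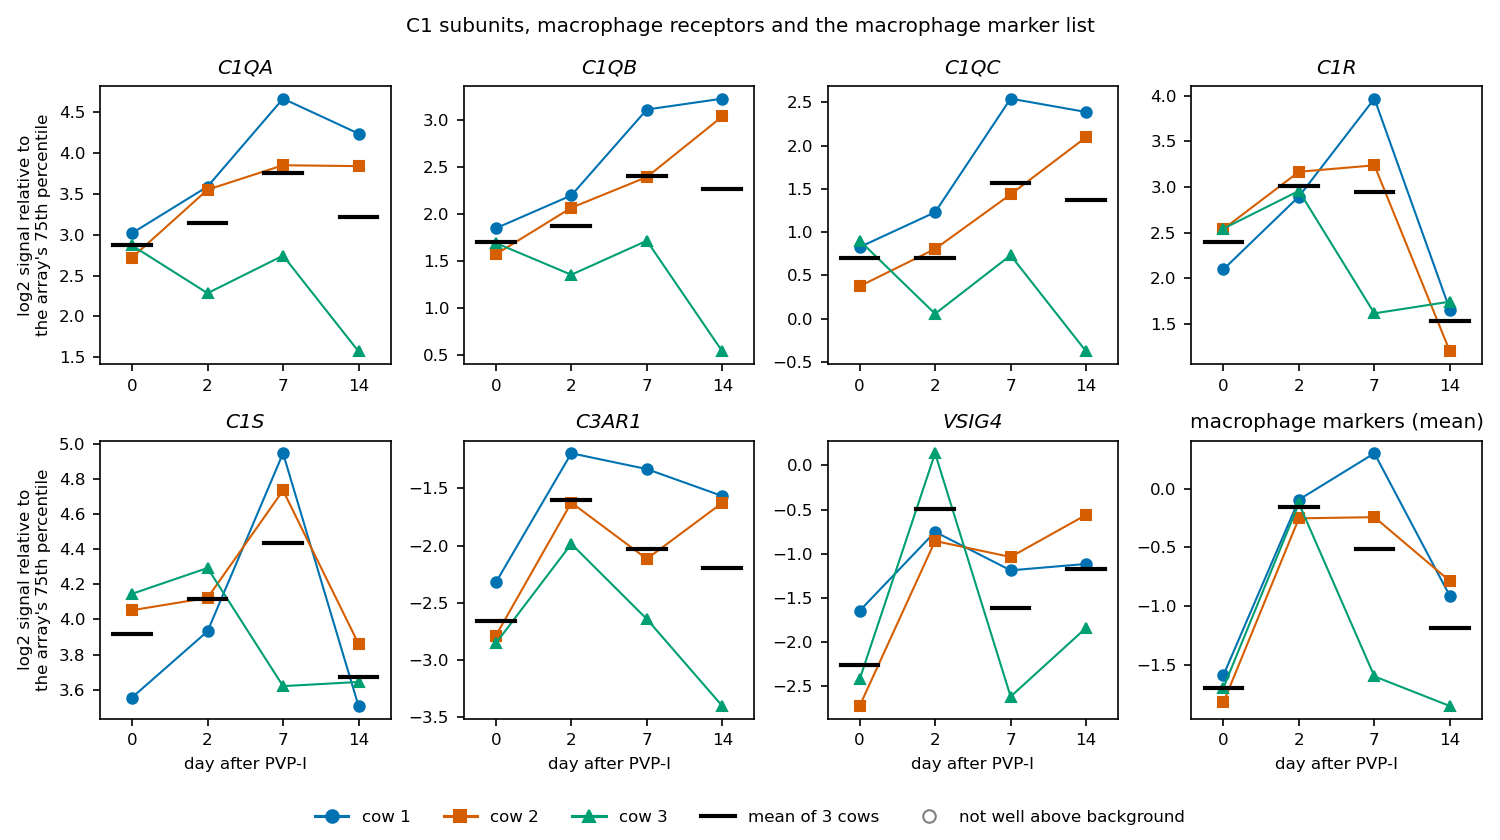
Log2 signal relative to the array's 75th percentile (vertical axes, each panel with its own range) by day after PVP-I (horizontal axes) for the C1 genes, C3AR1, VSIG4 and the mean of the macrophage markers; lines are cows, black bars day means of 3 cows. The line of cow 3 is the lowest of the 3 on day 7 in every panel, and the macrophage mean of that cow is -0.12 on day 2 and -1.60 on day 7.

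The lectin pathway held the largest change in each direction among the 29 genes tested. MASP1, the protease carried by collectins and ficolins, was read by 1 probe. Signals in cows 1, 2 and 3 were -6.04, -7.12 and -7.92 at day 0, -1.42, -3.07 and 1.32 at day 2, 1.56, 0.63 and 0.34 at day 7, and -3.52, -1.50 and 0.93 at day 14. All 9 later arrays were well above background and brighter than the 3 arrays of day 0, of which 1 was well above background. The change was 5.97 ± 1.21 on day 2 (adjusted p = 0.0455 in limma; 62.7-fold) and 7.87 ± 1.21 on day 7 (adjusted p = 0.0067; 234-fold), and these folds depend on the dim day 0 signals. With normexp background correction and quantile normalisation the same arrays gave 3.13 on day 2 (adjusted p = 0.105) and 4.78 on day 7 (adjusted p = 0.0116). On day 14 the change was 5.66, with an adjusted p of 0.075, and the gain over day 0 ran from 2.52 in cow 1 to 8.85 in cow 3. On days 2 and 14 MASP1 was brightest in cow 3, on the arrays with the highest smooth muscle signal. On day 7 cow 3 again had the highest smooth muscle mean, 4.32, against 3.54 in cow 1 and 3.05 in cow 2, but the lowest MASP1 signal. The part of smooth muscle was not tested. Without that day 2 array, the day 2 change was 4.93 (adjusted p = 0.098). The probe lies on chr1:81867116-81867175 of Btau_3.1, plus strand, and begins:
MASP1: ttcactcctctgtaaggttcctctgagctg

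COLEC11, a soluble collectin that binds sugars on microbes and carries the MASP proteases, fell. Its signals in cows 1, 2 and 3 were -1.04, -1.27 and -0.52 at day 0, -1.52, -2.57 and -3.02 at day 2, -5.43, -6.14 and -7.60 at day 7, and -3.25, -4.03 and -4.70 at day 14. Each cow was lower at each step until day 7 and higher again on day 14, and no array of a later day reached the lowest of day 0. The day 7 change was -5.45 ± 0.45 (adjusted p = 0.0017 in limma), or 43.6-fold lower, with 1 of 3 day 7 arrays well above background. With normexp and quantile normalisation it was -2.92 (adjusted p = 0.0011), so the fold depends on how dim signals are treated. COLEC11 was also the only gene of the 29 that passed the test between day 7 and day 2, with -4.02 ± 0.45 (adjusted p = 0.029), where 0.34% of all genes fell, and that difference was -1.69 (adjusted p = 0.030) with normexp. Between day 14 and day 7 it changed by 2.40 (adjusted p = 0.067), and on day 14 it was 3.05 below day 0 (adjusted p = 0.054). In all 3 cows MASP1 was above and COLEC11 below its own day 0 signal on days 2, 7 and 14.

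A second COLEC11 probe gave -5.53 ± 0.53 on day 7 (adjusted p = 0.0020), but it is no independent reading, as both probes share a run of 51 bases. The files place the brighter one on chr8:116374232-116374289 of Btau_3.1, minus strand. The first 30 bases of each are shown, with the 25 bases common to both stretches in capitals:
COLEC11 brightest: ctttgCTTTGCTGCAAACCCAGATTTCAAG
COLEC11 other: CTTTGCTGCAAACCCAGATTTCAAGaacaa

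MBL2, mannose-binding lectin, is a collectin made mainly by the liver. Its brightest probe lay between 2.99 and 3.67 on all 12 arrays and differed from day 0 by at most 0.28 on any day, while its other 2 probes were not well above background on any array. The bright probe shares runs of at least 20 bases with 6 probes of 5 other gene names, and all 6 were well above background on every array. Its values are given for the probe and are not read as levels of MBL2. The probes lie at chr26:6465705-6465764 (brightest), chr26:6465195-6465254 and chr26:6465319-6465378 of Btau_3.1, plus strand. A stretch of 30 bases of each is shown, and capitals mark bases in runs shared with other gene names:
MBL2 brightest: AGCTGAAACTCCAATACTTTGGCCACCTGA
MBL2 at transcript base 795: tttactcatctcatgggcccacaacctggt
MBL2 at transcript base 919: gatgtggaactgaaaagcgtgaagagactt

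COLEC12, a membrane collectin and scavenger receptor, did not pass the test on any day, and its changes from day 0 were -0.61, -0.13 and -0.22. On day 7 its cows differed in sign, with 1.35 in cow 1 and -1.82 in cow 3.

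In the alternative pathway, 2 of 4 genes rose on day 2 and 3 of 4 on day 7. C3, the protein all routes cleave, had signals in cows 1, 2 and 3 of 1.06, 2.01 and 1.22 at day 0, 2.69, 3.01 and 0.54 at day 2, 4.67, 3.54 and 1.97 at day 7, and 1.48, 1.08 and 0.83 at day 14. Each cow was highest on day 7, although the day 7 signal of cow 3 was no higher than the day 0 signal of cow 2. The day 7 change was 1.97 ± 0.54 (adjusted p = 0.040 in limma; 3.92-fold), carried by 3.61 in cow 1 against 1.54 and 0.76 in cows 2 and 3. On day 2 it was 0.65 (adjusted p = 0.52).

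C3 is the best covered of the genes, with 10 probes. Of these, the probes at transcript bases 3058, 3912, 4513, 4676 and 4914 were well above background on all 3 arrays of day 0. All of them rose on day 7, by 1.95 to 2.80. The others were well above background on at most 2 arrays of day 0, so the size of their changes depends on dim signals. Among these, 2 probes, at bases 2284 and 2439, rose by 2.59 and 3.14. The probe at base 1872 gave 1.99 (adjusted p = 0.14). The probes at bases 621 and 783 were not well above background on any day 0 array and were so on 2 of 3 day 7 arrays. They passed the filter only through arrays of days 2 and 7, on which they were high, so their p-values add no support. On day 7 they were at least 3.29-fold higher (adjusted p = 0.036 in limma) and at least 3.76-fold higher (adjusted p = 0.073). These bounds set the mean of the brighter day against the higher, on each day 0 array, of the probe's own signal and the lowest signal of any probe well above background. Read by their transcript positions, the 10 probes stay free of stop codons in 1 shared reading frame. The 3 shown stand for the start, the middle and the end of the covered stretch, at transcript bases 621, 3058 and 4914. They lie on the plus strand at chr7:16322555-16322717, where 163 genomic bases hold the 60 of the probe and at least 1 exon junction is crossed, at chr7:16339890-16339949 and at chr7:16354080-16354139 (Btau_3.1). The probes at bases 3058 and 4914 changed by 2.53 and 1.97 on day 7, and the one at base 621 has only the bound given above:
C3 base 621: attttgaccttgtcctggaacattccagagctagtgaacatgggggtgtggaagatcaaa
C3 base 3058: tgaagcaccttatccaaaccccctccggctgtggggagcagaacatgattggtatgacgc
C3 base 4914: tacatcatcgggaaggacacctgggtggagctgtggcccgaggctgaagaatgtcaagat

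CFB, factor B, supplies the protease of the alternative C3 convertase. Its signals in cows 1, 2 and 3 were 1.63, 0.99 and -0.98 at day 0, 4.03, 5.44 and 2.13 at day 2, 5.04, 4.38 and 4.56 at day 7, and 2.05, 1.85 and 2.23 at day 14. The SD over the 3 cows was 0.34 on day 7 and 1.36 on day 0, and all later arrays lay above those of day 0. The change was 3.32 ± 0.69 on day 2 (adjusted p = 0.048 in limma; 9.99-fold) and 4.12 ± 0.69 on day 7 (adjusted p = 0.0090; 17.3-fold). All 4 CFB probes rose on day 7, by 3.98 to 4.71. On day 2 the other 3 gave at most 3.97, with adjusted p between 0.054 and 0.068. The day 2 call of CFB was lost with normexp and quantile normalisation. The probe shown ends with the stop codon, in capitals, at chr23:27207293-27207352 of Btau_3.1 on the minus strand, next to C2 on the same chromosome, and changed by 4.14 on day 7:
CFB base 2336: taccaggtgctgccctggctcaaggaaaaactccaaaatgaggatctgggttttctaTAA

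CFP, properdin, stabilises that convertase and comes from neutrophils and macrophages. Signals in cows 1, 2 and 3 were -1.33, -1.14 and -1.48 at day 0, 0.88, 0.84 and 0.52 at day 2, 0.90, 0.31 and -0.96 at day 7, and -0.25, -0.16 and -1.44 at day 14. The 3 cows gained between 1.98 and 2.21 on day 2 and spread out afterwards, with cow 3 the lowest on days 7 and 14. The change was 2.06 ± 0.31 on day 2 (adjusted p = 0.022 in limma; 4.18-fold) and 1.41 ± 0.31 on day 7 (adjusted p = 0.021; 2.65-fold). The second CFP probe gave 1.29 (adjusted p = 0.089) and 0.82 (adjusted p = 0.13) and passed on neither day. The brightest probe lies on chrX:56195504-56195563 of Btau_3.1, plus strand, and begins:
CFP: aagaacgtgaccttctgggggaaaccgttt

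CFD, factor D, which cleaves factor B, did not pass the test. Its changes from day 0 were 0.51, 0.76 and 0.60 on days 2, 7 and 14, and on day 7 cow 1 gained 1.97 while cow 3 differed by -0.38.

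**Figure D3:**
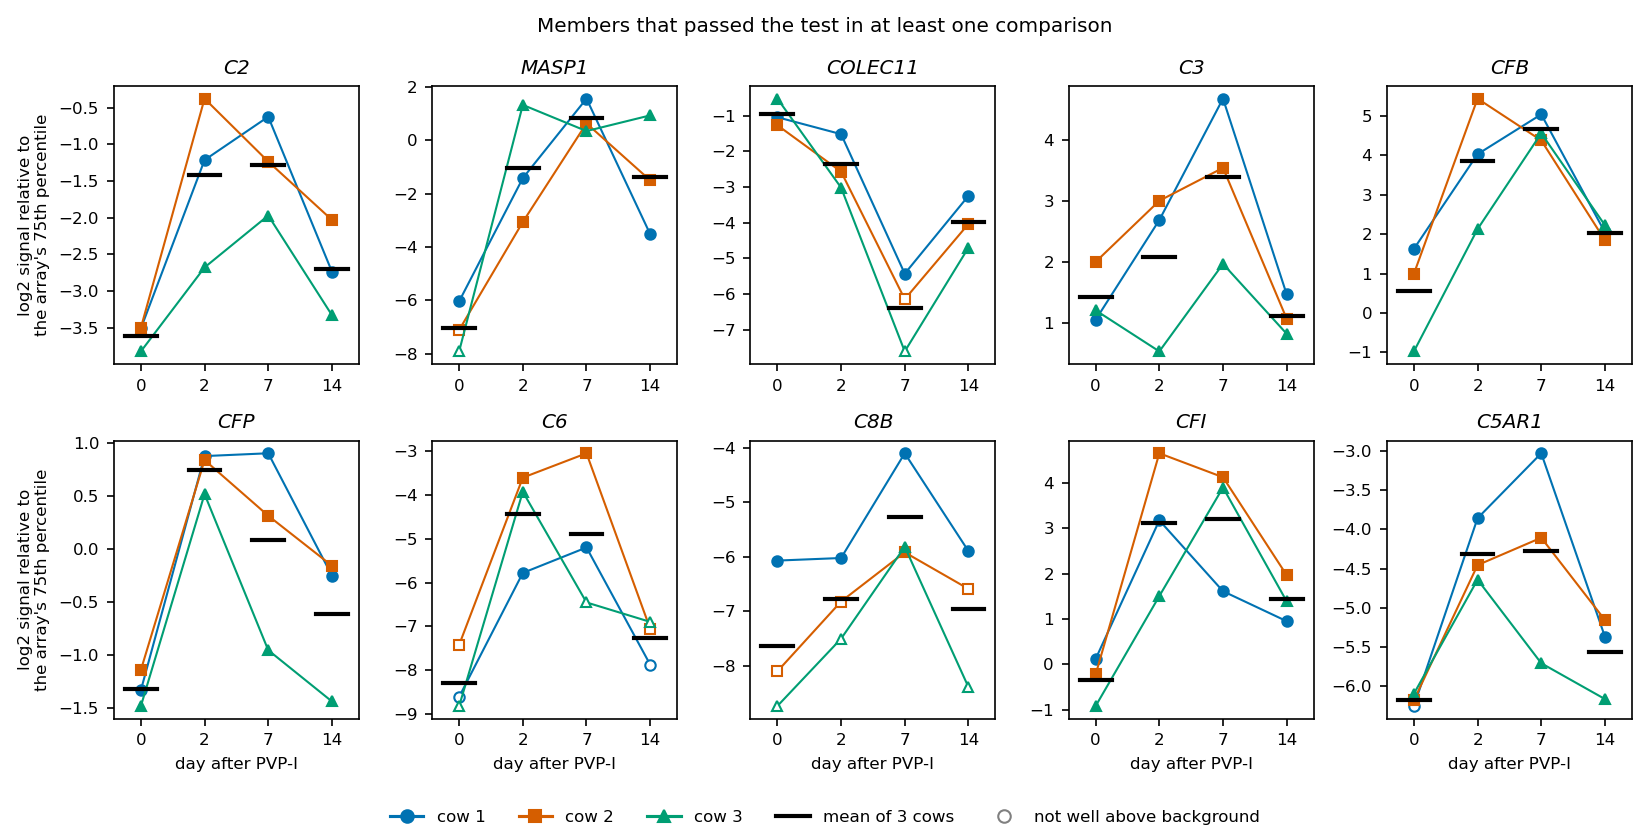
Log2 signal relative to the array's 75th percentile (vertical axes, each panel with its own range) by day after PVP-I (horizontal axes) of the 10 genes that passed the test in at least 1 comparison; lines are cows, black bars day means of 3 cows, open symbols arrays not well above background. On days 2, 7 and 14 every cow's MASP1 lies above and its COLEC11 below its own day 0 signal, and CFP and C5AR1 are lowest in cow 3 on day 7.

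In the terminal pathway, 1 of 7 genes (C6) rose on day 2 and 2 of 7 (C6 and C8B) rose on day 7. C6, the first link between C5 and the pore, had signals in cows 1, 2 and 3 of -8.61, -7.42 and -8.82 at day 0, -5.78, -3.60 and -3.92 at day 2, -5.20, -3.04 and -6.45 at day 7, and -7.87, -7.05 and -6.90 at day 14. It was not well above background on any array of day 0 or day 14, and it was so on all 3 arrays of day 2 and on 2 of day 7. It therefore entered the test only through the days on which it was high, so its p-values add no support. It was not tested under a stricter filter of 6 arrays. The means were -4.43 on day 2 and -4.90 on day 7, against -8.28 on day 0. By the bound used for C3, C6 was at least 4.32-fold higher on day 2 (adjusted p = 0.028 in limma) and at least 3.14-fold higher on day 7 (adjusted p = 0.012). With normexp and quantile normalisation the calls were lost, with 0.89 on day 2 (adjusted p = 0.124) and 0.77 on day 7 (adjusted p = 0.095). The other 2 C6 probes were not well above background on any array, so the change rests on 1 probe, on chr20:35525900-35525959 of Btau_3.1, plus strand, which begins:
C6: ctgacgaccttatgatgcctgctgtattaa

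C8B, the beta chain of C8, rose on day 7. Signals in cows 1, 2 and 3 were -6.07, -8.10 and -8.74 at day 0, -6.02, -6.82 and -7.50 at day 2, -4.10, -5.92 and -5.82 at day 7, and -5.90, -6.59 and -8.39 at day 14. All 3 arrays of day 7 but only 1 of each other day were well above background, that of cow 1. The change was 2.36 ± 0.36 on day 7 (adjusted p = 0.0065 in limma; 5.12-fold) and 0.85 on day 2 (adjusted p = 0.22). The size on day 7 depends on how the dim day 0 signals are treated, as normexp and quantile normalisation gave 0.37 (adjusted p = 0.038). The probe lies on chr3:95620147-95620206 of Btau_3.1, plus strand, and the other C8B probe did not reach the filter:
C8B: catttggagctggcccatgggtggagggct

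The partner chains C8A and C8G differed from day 0 by -0.45 and -0.48 on day 7 (adjusted p = 0.69 and 0.26). C7, which anchors the forming pore in the membrane, was above its day 0 range in every cow on day 2 and day 7, by 3.18 ± 0.90 and 1.96 ± 0.90, but adjusted p was 0.10 and 0.16. Its highest signal, 1.57, came from cow 3 on day 2, the array with the most smooth muscle signal. Without overlap between the days, 13 of the 29 tested genes were higher and 1 was lower on day 2 than on day 0, where 12.6% and 12.9% of all genes were. On day 7 these numbers were 10 and 1, against 19.7% and 19.1%, and on day 14 they were 4 and 3, against 13.6% and 11.8%.

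Among the 10 regulators and receptors, 1 rose on day 2 and 2 on day 7. CFI, factor I, is the protease that destroys C3b and C4b. Its signals in cows 1, 2 and 3 were 0.12, -0.22 and -0.91 at day 0, 3.17, 4.65 and 1.50 at day 2, 1.61, 4.12 and 3.89 at day 7, and 0.95, 1.96 and 1.39 at day 14. Cow 1 peaked on day 2 and cow 3 on day 7, and all 9 later arrays lay above the 3 of day 0. The change was 3.44 ± 0.72 on day 2 (adjusted p = 0.049 in limma; 10.9-fold) and 3.54 ± 0.72 on day 7 (adjusted p = 0.016; 11.7-fold). All 4 CFI probes rose on day 7, by 2.79 to 3.54, and on day 2 the other 3 gave 2.77 to 3.06 with adjusted p between 0.050 and 0.065. The day 2 call of CFI was lost with normexp and quantile normalisation. The brightest lies on chr6:17066486-17066545 of Btau_3.1, plus strand, and begins:
CFI: ctcagcacaacatataaaactatgatctct

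C5AR1, the receptor that draws neutrophils and macrophages to C5a, had signals in cows 1, 2 and 3 of -6.26, -6.18 and -6.10 at day 0, -3.86, -4.46 and -4.64 at day 2, -3.03, -4.11 and -5.71 at day 7, and -5.37, -5.16 and -6.17 at day 14. The SD of the day 0 arrays was 0.08, with 2 of 3 well above background, and every array of days 2 and 7 lay above them. The change was 1.90 ± 0.45 on day 7 (adjusted p = 0.026 in limma; 3.72-fold), made of 3.23 in cow 1, 2.07 in cow 2 and 0.39 in cow 3, the same order as the macrophage mean. With normexp and quantile normalisation it was 0.73 (adjusted p = 0.041). On day 2 it was 1.86 (adjusted p = 0.072). The other 2 probes of C5AR1 were not well above background on any array. The brightest lies on chr18:54123327-54123386 of Btau_3.1, plus strand, and begins:
C5AR1: ttctcggacttgtcctgcttcttttaggcg

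C3AR1, the C3a receptor, and VSIG4, a macrophage receptor for C3 fragments, were above their day 0 range in every cow on day 2, by 1.05 ± 0.31 and 1.77 ± 0.50, with adjusted p of 0.11 and 0.10. On day 7 cow 3 was back at -2.64 and -2.61, near its day 0 values of -2.85 and -2.42. CD55, which breaks up convertases, differed from day 0 by 0.92 ± 0.28 on day 2 (adjusted p = 0.12) and 0.81 ± 0.28 on day 7 (adjusted p = 0.081). CD59, which blocks the pore, differed by 0.85 ± 0.26 on day 7 (adjusted p = 0.057). CD46, a cofactor of factor I, differed by -0.08 on day 2 and 0.37 on day 7, and its 4 tested probes ranged from -0.95 to 0.37 on day 7 with none called.

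CLU, clusterin, a secreted inhibitor of the pore, gave different answers by probe. Its brightest probe, at transcript base 1543, gave 0.37 ± 0.21 on day 7 (adjusted p = 0.24) and the one at base 1577 by 0.16 (adjusted p = 0.68). The probes at bases 236 and 1360 rose by 1.95 ± 0.54 (adjusted p = 0.040) and 1.46 ± 0.37 (adjusted p = 0.031). The call for CLU therefore depends on the probe chosen, unlike CFB and CFI, whose 4 probes each rose together.

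**Figure D4:**
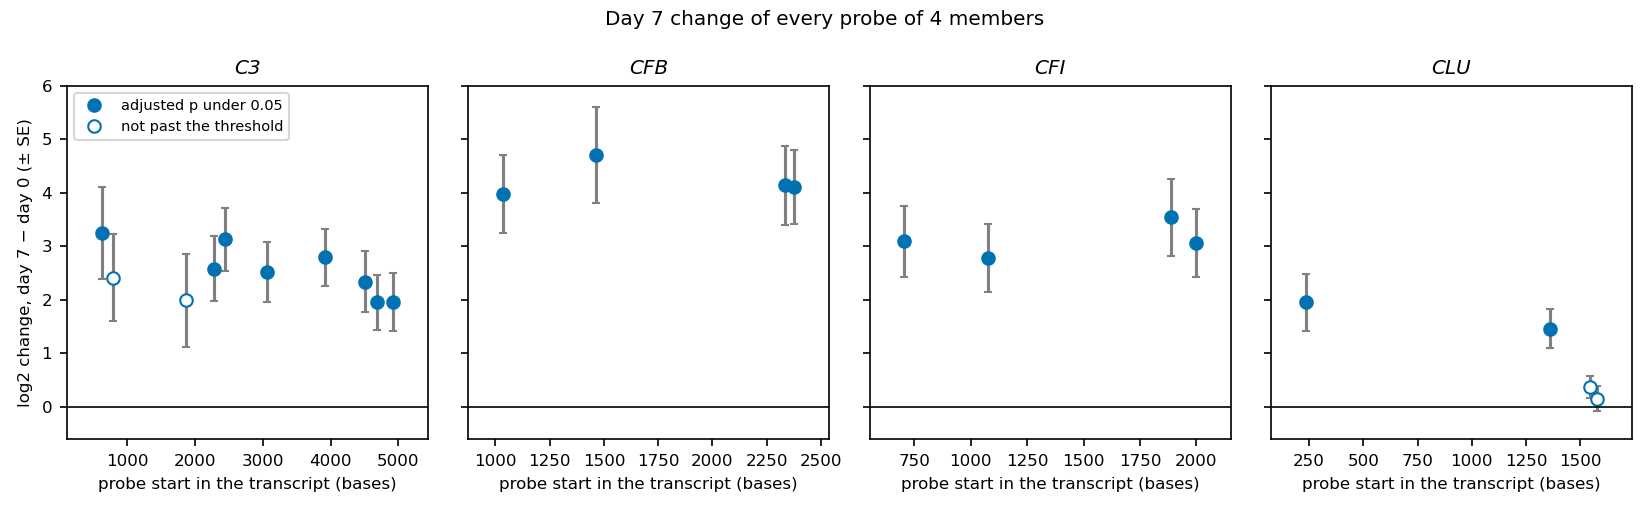
Log2 change on day 7 minus day 0 with its standard error (vertical axis) for every probe of C3, CFB, CFI and CLU, by the probe's start in the transcript in bases (horizontal axes); filled symbols have an adjusted p under 0.05. The C3 probes well above background on all day 0 arrays lie between 1.95 and 2.80, and the leftmost 2, at bases 621 and 783, were not above it on any day 0 array. In CLU the probes near the end of the transcript lie at 0.37 and 0.16 while the others lie at 1.46 and 1.95.

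Over the 4 days together, the moderated F-test called 8 of the 29 genes (C2, MASP1, COLEC11, CFB, CFP, C6, C8B and CFI), where it called 8.03% of all genes. The call of C6 adds no support, as C6 passed the filter only through arrays on which it was high. From day 7 to day 14 limma called 0 of the 29, where it called 0.141% of all genes, although 13 had an unadjusted p under 0.05, as had 18% of all probes. In that step 13 of the 29 were lower in all 3 cows and 4 were higher in all 3. The share of all genes lower or higher in all 3 cows was not worked out. Among the lower genes were C2, C3, CFB, C6, C8B and CFI, which had risen on day 7 against day 0. Both comparisons use the same day 7 arrays, so these falls are not independent of those rises.

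Of 32 further complement gene names fixed as a list, which held GPR77 also under its other name C5AR2, 19 were on the array and 16 were tested. On day 2, FCN2, a ficolin of the lectin pathway, rose by 3.84 ± 0.76 (adjusted p = 0.043 in limma) and ITGB2, the beta chain of complement receptors on leukocytes, by 1.99 ± 0.36 (adjusted p = 0.036). On day 7 both were again higher, by 3.62 and 1.72, and C4BPA, which helps factor I to cleave C4b, rose by 5.26 ± 0.89 (adjusted p = 0.0093). A2M, a protease inhibitor, rose by 3.83 ± 1.04 (adjusted p = 0.039). C1QBP fell by 1.08 (adjusted p = 0.022) and GPR77, a second C5a receptor, by 2.22 (adjusted p = 0.049). On day 14 limma called 0 of the 16, and 6 had an unadjusted p under 0.05, as had 20.6% of all probes. The median change of the 19 genes was 0.97 on day 2, 0.25 on day 7 and 0.05 on day 14.

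Calls against day 0 in the other marker lists are set beside those of all genes. Of these, 1.69% rose and 1.08% fell on day 2, and 9.71% rose and 8.79% fell on day 7. Among T and natural killer cell genes, 1 of 13 rose and 1 fell on day 2, and 2 rose and 1 fell on day 7. Of 6 B cell and 11 epithelial genes, limma called 0 on each day, and at an unadjusted p under 0.05 there were 1, 0 and 2 B cell genes and 0, 2 and 0 epithelial genes on days 2, 7 and 14. Stromal genes had 1 of 11 higher on day 2 and 2 on day 7, smooth muscle genes 0 and 3 of 8, and endothelial genes 1 and 2 of 8. Of 6 erythroid genes, 3 were tested, and 1 of these fell on day 7. The mean signal of the 6 was -4.36 to -4.16 on day 14 and between -6.42 and -5.44 on the other days, but limma called 0 of the 3 on day 14. Of 8 endometrial genes, 4 rose on day 7, among them the oestrogen and progesterone receptors ESR1 (1.86) and PGR (1.74).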

How the data were processed

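Spot intensity values were deposited as scanner output, made by the authors with Agilent Feature Extraction (11.5.1.1 per the file headers, 10.5.1.1 per the submitters' processing notes) and detrended within each array per the file headers. The authors also deposited a log2 value table; how it was made is not stated in the labels or headers, and its scale and centring were found only by setting it against the scanner files (median absolute difference at most 0.0031 after the 75th percentile of each array and the median of each probe were taken off). The table named the samples of the arrays.

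The log2 of the processed intensity was taken, less the 75th percentile over non-control spots of the same array (825 to 1119 units). Spots of a probe were averaged, 1417 control spots and 31 probes with outlier flags were left out, and 33539 probes well above background on at least 3 of 12 arrays were kept. No probe was saturated. Precision is limited by the number of arrays. Gene names are those of the scanner files; 70 of 87 probe accessions were found in a RefSeq gene table (used for names only), and 0 had another symbol.

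limma 3.58.1 (R 4.3.3) fitted day and cow to all 12 arrays (residual degrees of freedom 6, prior 2.33), and p-values were adjusted by Benjamini-Hochberg over all probes at 0.05. The design text says that the same cows were biopsied each day. Across 18 pairs of arrays of the same cow, deviations from day means had a mean correlation of 0.285 (lowest 0.0235, 15 above 0.1). On simulated day 7 data of 33539 probes, 9 of 50 probes changed by 1 (log2), 36 of 50 by 2, 46 of 50 by 3 and 44 of 50 by 4 were recovered, with 13 false calls. The simulation changed only 200 probes, whereas 9.71% of all genes rose and 8.79% fell on day 7. The recovered shares therefore need not hold for the real comparison.

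Per-sample values, changes and adjusted p are given for members past the threshold in any comparison, the others by ranges and counts, except that some of these are named with values because of their role; other complement genes are named where they passed against day 0. The members and all lists were chosen with earlier results of these data known. Alternatives covered the block, the filter, background and scaling, the value table, the file links, array weights, the probe rule and leaving out cows or an array.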

Additional observations from a re-analysis of the deposited data

Results flagged for a closer look

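COLEC11 was singled out because its day 2 and day 7 changes differed in a test of the difference itself: day 7 minus day 2 was -4.02 (adjusted p = 0.029 in limma), lower in 3 of 3 cows, with changes from day 0 of -5.45 on day 7 and -1.42 on day 2.

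C1R, C1S and CD55 moved one way in every cow on an earlier day and the other way in every cow on day 14, each against day 0. None of these changes from day 0 passed the test. For C1S they were 0.20 on day 2 (adjusted p = 0.77 in limma) and -0.25 on day 14 (adjusted p = 0.70). The share of all genes with such signs was not worked out. For C1R, day 14 minus day 2 was -1.47, for C1S it was -0.45 and for CD55 it was -1.24, and these differences were not tested. For CD55, day 14 minus day 7 was -1.13 (adjusted p = 0.11 in limma), lower in 3 of 3 cows. These pairs of changes share the day 0 arrays.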

How the results depend on the processing

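Of the 29 tested genes, 6 were called on day 2, and 4 with quantile scaling or with the mean of a gene's probes, 3 with normexp and quantile normalisation, with no filter or without the day 2 array of cow 3, and 1 when only the days compared were fitted. With normexp the 3 were C2, CFP and COLEC11, and COLEC11 was not among the 6. CFB and CFI lost their day 2 calls with quantile scaling and with normexp. On day 7, 10 were called, and 6 with only the days compared; 9 or 10 were called with another filter, scaling, probe rule or the value table. COLEC11 was called on day 14 (1 gene) with quantile scaling, with normexp and with array weights, and not between day 7 and day 2 (0) when only those days were fitted.

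Leaving out a cow gave 0 to 5 calls on day 2, 0 to 15 on day 7, 0 to 3 between day 7 and day 2, 0 to 1 between day 14 and day 7, and 0 to 13 in the F-test. With array weights, whose fit did not converge fully, 12 genes were called on day 2, 14 on day 7, 1 on day 14, 4 between day 7 and day 2, 16 between day 14 and day 7 and 23 in the F-test.

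The cow as a block pairs arrays of the same animals. With no replicate block, 1 gene was called on day 2 (MASP1), 7 on day 7 and 4 in the F-test. With slide as a block the counts were those with cow, as slide and cow are 1 factor.

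With the samples of the file links, 0 genes were called in any comparison, and 11 of the changes called by the table's names reversed. On day 2 they were -0.42 for C2, -2.60 for MASP1, -0.74 for CFB and -0.33 for CFP. On day 7 they were -0.58 for C2, -0.96 for MASP1, -0.86 for C3, -1.82 for CFB, -0.59 for CFP, -1.68 for C8B and -0.74 for C5AR1. The cause of these differences was not tested. Signal near background limits the smaller values of MASP1, C6, C8B and COLEC11.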

Other observations

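C5, cleaved to start the terminal pathway, did not pass the test against day 0, with mean differences of 1.24 on day 2, -2.02 on day 7 and 1.27 on day 14. Its signals in cows 1, 2 and 3 were -1.82, -1.65 and -4.67 at day 0, -1.19, -0.69 and -2.53 at day 2, -6.26, -3.59 and -4.33 at day 7, and -2.70, -1.13 and -0.50 at day 14. Each cow was lower on day 7 than on day 2 and day 14, by 3.26 ± 0.90 and 3.29 ± 0.90 on average, with adjusted p of 0.12 and 0.13 in limma. Without cow 3, C5 was called on day 7.

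C8A and C9 differed between single arrays more than between days. C8A lay between -5.69 and -3.64 on the 4 arrays of cow 2 and between -9.05 and -8.35 on those of cow 1. C9, the pore-forming unit, was well above background in 3 arrays: cows 1 and 2 on day 2 (-4.94 and -6.06) and cow 3 on day 14 (-3.15). It lay between -8.72 and -7.39 on the other 9. Against day 0, C9 did not pass the test on day 2 (adjusted p = 0.36 in limma) or day 14 (adjusted p = 0.52), and differences between cows were not tested.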
